A study of Clonorchis sinensis with 4 samples.

Results

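Small RNA of the Chinese liver fluke Clonorchis sinensis was compared between eggs and metacercariae over all annotated RNA classes, with 1 library for each stage out of 4 libraries in the series. The members are every known miRNA, predicted miRNA, piRNA and Rfam family listed in either library, which came to 5225 entries, with 3504 listed in eggs and 4197 in metacercariae, out of 6390 listed over eggs, metacercariae and adult worms. The labels give for each library the species, the developmental stage (eggs or metacercaria) and total RNA taken with Trizol, and they name no treatment. They do not give the strain, the host, the age, the number of eggs or larvae pooled, or how the eggs were collected. Annotated tags numbered 20541335 in eggs and 20490790 in metacercariae. With 1 library per stage there is no replicate check and no test, so every difference is a difference between 2 libraries. Adult worms, also 1 library, are given only for context.

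The eggs of this fluke hold the ciliated larva for the snail host (the miracidium) or its embryo, and the labels do not say which. The metacercaria is the encysted larva in freshwater fish, with suckers, a gut, muscle and a nervous system, and it infects the mammal that eats the fish. A miRNA is a short RNA that guides an Argonaute protein to messenger RNAs, mostly through its seed, the bases near its 5′ end, and represses them. Several families are old enough to be shared by flatworms, nematodes, flies and vertebrates, and some of them mark a tissue or a developmental time. The piRNAs of other animals guide Piwi proteins against transposons in the germline. Rfam families are groups of structured RNAs, such as ribosomal RNA, transfer RNA and miRNA precursors, and short tags assigned to them can be fragments of the longer RNA.

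The mature sequences below belong to an embryonic family, a growth miRNA, a Hox-linked miRNA and a timing miRNA described in the results. They were read from the deposited table of the vesicle library of the same species. Each is written 5′ to 3′, and the capitals mark the seed, bases 2 to 8. No pair of them shares a seed.
miR-36a-3p: cCACCGGGtagacattcattcgc
bantam-3p: tGAGATCGcgattaaagctggt
miR-10-5p: aACCCTGTagacccgagtttgg
let-7-5p: gGAGGTAGttcgttgtgtggt

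Values are given on a pair of scales. The library scale is RPM, tags scaled to 1000000 annotated tags of the library. The class scale is tags scaled to 1000000 tags of the entry's own class, and it describes the makeup of a class irrespective of how large that class is. Entries were called higher or lower in eggs where the fold reached 4 or more, the library with more held at least 10 tags, and the exact 95% interval of the ratio lay beyond 2-fold. A pseudocount of 1 was added on the class scale and none on the library scale. Printed folds carry no pseudocount. Log2 folds on the class scale carry the pseudocount of 1, as do the log2 folds of entries that turned in the closing section. The intervals cover counting error only, and without molecular identifiers the tags cannot be taken as independent molecules. Known miRNAs and Rfam families are listed from 1 tag, so an unlisted one has 0, for which a floor of 3 tags was used. The lists of predicted miRNAs and of piRNAs start at 10 tags, so an unlisted entry there holds at most 9. Folds against a floor or an unlisted entry are written "at least".

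The classes differed in size between the stages. Known miRNAs made up 14.9% of annotated tags in eggs and 38.8% in metacercariae, a 2.60-fold lower share in eggs. Predicted miRNAs went the other way, with 6.20% in eggs and 2.96% in metacercariae, 2.10-fold higher in eggs. The piRNAs made up 0.480% in eggs and 0.617% in metacercariae. Adult worms were close to eggs for known miRNAs, at 16.1%, and had 2.24% predicted miRNAs and 0.917% piRNAs. In whole-organism RNA, fewer cells of a type and less RNA per cell cannot be told apart, and a class share also falls when another class grows.

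The Rfam classes split by kind. Tags assigned to Rfam miRNA precursors were 0.337% in eggs and 3.20% in metacercariae, 9.50-fold lower in eggs. Ribosomal RNA fragments were 1.13% in eggs and 0.0779% in metacercariae, 14.5-fold higher in eggs (interval 14.3 to 14.7). Fragments of snoRNAs, which guide the modification of ribosomal RNA, were 0.0149% in eggs and 0.00304% in metacercariae, 4.91-fold higher in eggs. The family A. fumigatus snoRNA Afu_294 alone held 82.1% of snoRNA tags in eggs and 41.3% in metacercariae, so the class ratio rests largely on it. Fragments of snRNA (1.24-fold) and tRNA (1.12-fold) were near equal. All Rfam families without the precursors held 1.46% of egg tags and 0.114% of metacercaria tags, 12.8-fold higher in eggs. Tags that map only to pooled repeat, exon, intron or intergenic sequence held 76.6% in eggs and 54.3% in metacercariae, and of these the ratio was widest for repeat tags, at 2.49% in eggs and 0.781% in metacercariae, 3.19-fold, while the difference in share was widest for intergenic tags, at 44.6% in eggs and 31.7% in metacercariae. Tags of plant miRNA families were also higher in eggs, at 963 RPM in eggs and 3.81 RPM in metacercariae, and their part in the class differences was not tested.

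**Figure D1:**
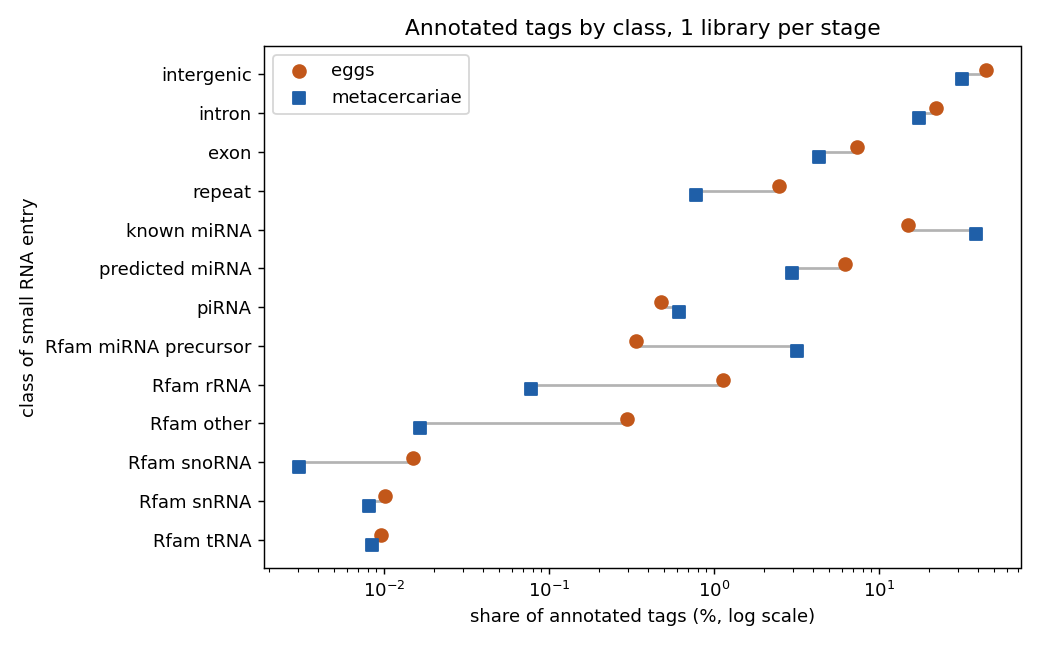
Share of annotated tags in each RNA class on a log axis, in eggs (circles) and metacercariae (squares), 1 library per stage. Ribosomal RNA fragments were 1.13% in eggs and 0.0779% in metacercariae, and known miRNAs were 14.9% in eggs and 38.8% in metacercariae.

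Among known miRNAs, eggs were rich in the miR-36 family and in some miR-2 and miR-71 members, and metacercariae were rich in miRNAs that mark neurons and muscle in other animals. The tables listed 55 known miRNAs, 55 in eggs and 53 in metacercariae, and 50 reached 10 tags in either library. On the class scale 10 of 50 (20.0%) were higher in eggs and 11 (22.0%) lower. On the library scale 6 (12.0%) were higher and 23 (46.0%) lower, because the known miRNA total itself was 2.60-fold lower in eggs. On both scales 6 were higher and 11 lower. The 5 most abundant known miRNAs held 77.8% of known miRNA tags in eggs and 81.3% in metacercariae, and 3 of them (miR-71a-5p, bantam and miR-2a-3p) were the same. The other two were miR-36b-3p and miR-71b-5p in eggs, and miR-124a-3p and miR-1 in metacercariae.

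The miR-36 family belongs to the mir-35 group of Caenorhabditis elegans, which is active in early embryos there. All 3 listed members were higher in eggs on both scales. miR-36b-3p had 378887 tags in eggs and 14105 in metacercariae, 69.7-fold higher on the class scale and 26.8-fold on the library scale (26.3 to 27.3). miR-36a-3p, whose sequence is given above, had 4717 tags in eggs and 225 in metacercariae, 54.4-fold higher on the class scale and 20.9-fold on the library scale. The third member, miR-36b, had 25388 tags in eggs and 6002 in metacercariae, 11.0-fold and 4.22-fold higher. Their median log2 fold on the class scale was 5.72, beside −0.39 over all 50 known miRNAs. Together the family took 13.3% of known miRNA tags in eggs and 0.256% in metacercariae. In adults the family summed to 23994 tags, or 1236 RPM, against 19911 RPM in eggs and 992 RPM in metacercariae.

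The miR-71 and miR-2 miRNAs lie together in a conserved cluster of invertebrate genomes, and miR-71 affects lifespan in Caenorhabditis elegans. Of 10 listed members, 5 were higher and 0 lower in eggs on the class scale, against 20.0% of all 50 being higher and 22.0% lower. On the library scale 3 were higher and 2 lower, against 12.0% and 46.0% of all 50. Their median log2 fold was 1.58 on the class scale and 0.48 on the library scale, beside −0.39 and −1.80 over all 50. The members did not move as one. miR-2c-3p had 19751 tags in eggs and 1394 in metacercariae, 36.7-fold higher on the class scale and 14.1-fold on the library scale. miR-2d-3p had 18476 tags in eggs and 2070 in metacercariae, 23.1-fold and 8.90-fold higher. miR-71b-5p had 159066 tags in eggs and 19330 in metacercariae, 21.3-fold and 8.21-fold higher. miR-2b-3p, more abundant than either of those miR-2 entries in both libraries, had 67727 tags in eggs and 42521 in metacercariae, 4.13-fold higher on the class scale and 1.59-fold on the library scale. The most abundant entries of each family, miR-71a-5p and miR-2a-3p, were lower in eggs on the library scale. miR-71a-5p, the top known miRNA of both libraries, had 1109347 tags in eggs and 2200299 in metacercariae, 1.31-fold higher on the class scale but 1.99-fold lower on the library scale. miR-2a-3p had 257270 tags in eggs and 1089187 in metacercariae, 1.63-fold lower on the class scale and 4.24-fold lower on the library scale. Summed over its entries, the miR-2 family was 1.09-fold lower in eggs on the class scale and 2.82-fold lower on the library scale, while miR-2c-3p and miR-2d-3p were higher in eggs on both. Near-identical paralogs can share tags, and no source used here says how tags that fit several of them were assigned.

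Bantam promotes tissue growth in flies. Its main entry, bantam, had 482658 tags in eggs and 539243 in metacercariae, 2.32-fold higher on the class scale and 1.12-fold lower on the library scale. bantam-3p had 683 tags in eggs and 249 in metacercariae, 7.11-fold higher on the class scale and 2.74-fold on the library scale, where it was not past the fold. Adults held more bantam than either, with 1122549 tags.

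The timing and patterning miRNAs were lower or alike in eggs. let-7 times the change from larva to adult in nematodes. let-7-5p had 3144 tags in eggs and 11934 in metacercariae, 1.46-fold lower in eggs on the class scale and 3.81-fold on the library scale, so it was past the fold on neither. The other two listed members of the timing group, let-7-3p (26 tags in eggs, 141 in metacercariae) and miR-125c-5p (1 tag in eggs, 17 in metacercariae), were lower on the library scale alone, by 5.44-fold and by 17.0-fold with a counting interval of 2.67 to 712 for the second. miR-10-5p, from a family that lies in Hox gene clusters in many animals, had 11386 tags in eggs and 156377 in metacercariae, 5.30-fold lower on the class scale and 13.8-fold on the library scale.

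Muscle and nerve miRNAs were mostly lower in eggs. miR-1 and miR-133 mark muscle in vertebrates and miR-1 also in flies. miR-1 had 79887 tags in eggs and 1154930 in metacercariae, 5.57-fold lower in eggs on the class scale and 14.5-fold on the library scale. miR-133 had 40 tags in eggs and 1480 in metacercariae, 14.3-fold and 37.1-fold lower. Of 5 muscle entries 2 were lower on the class scale and 4 on the library scale, against 22.0% and 46.0% of all 50 known miRNAs, and none was higher. Their summed share of known miRNA tags was 2.98% in eggs and 15.6% in metacercariae. The median log2 fold of the 5 was −1.67 on the class scale, beside −0.39 over all 50 known miRNAs.

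miR-124 is a marker of neurons in vertebrates and flies. miR-124a-3p had 32454 tags in eggs and 1482147 in metacercariae, 17.6-fold lower in eggs on the class scale and 45.8-fold on the library scale (45.3 to 46.3). miR-124b-5p had 1555 tags in eggs and 81623 in metacercariae, 20.2-fold and 52.6-fold lower. miR-7, known in flies for photoreceptor development, had 3 entries. miR-7-3p had 170 tags in eggs and 4426 in metacercariae, 10.0-fold lower in eggs on the class scale. miR-7-5p_1 had 272 tags in eggs and 4119 in metacercariae, 5.84-fold lower on that scale. miR-7-5p, the abundant one, had 50040 tags in eggs and 348040 in metacercariae, 2.68-fold lower on the class scale and 6.97-fold on the library scale. miR-219-5p, abundant in vertebrate brain, had 3713 tags in eggs and 37655 in metacercariae, 3.91-fold and 10.2-fold lower. miR-96-5p, which acts in vertebrate sensory cells, was the exception, with 15291 tags in eggs and 35354 in metacercariae, 1.12-fold higher on the class scale and 2.32-fold lower on the library scale. Of 8 entries in this group 4 were lower on the class scale and 7 on the library scale, against 22.0% and 46.0% of all 50, and none was higher. Their summed share of known miRNA tags was 3.67% in eggs and 26.0% in metacercariae. Their median log2 fold on the class scale was −2.25, beside −0.39 over all 50.

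Adult worms did not share this feature with metacercariae. The nervous system entries summed to 5944 RPM in adults, against 5482 RPM in eggs and 101044 RPM in metacercariae, and the muscle entries to 4275 RPM in adults, against 4447 RPM in eggs and 60423 RPM in metacercariae. For both groups the encysted larva was the library that stood apart.

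Of the 12 listed entries of other flatworm families, 3 were lower in eggs on the class scale, 6 on the library scale and none was higher. Those shares of the 12 were near the 22.0% and 46.0% lower over all 50 known miRNAs. miR-8-3p, from a family that acts in fly neuromuscular and growth control, had 165 tags in eggs and 6787 in metacercariae, 15.9-fold lower on the class scale. miR-31-5p_1 had 4914 tags in eggs and 58324 in metacercariae, 4.58-fold lower on that scale. miR-190-5p had 1 tag in eggs and 124 in metacercariae, so it was 47.8-fold lower with a counting interval of 8.42 to 1903. On the same class scale the more abundant entry miR-190 (35217 tags in eggs, 130141 in metacercariae) was only 1.42-fold lower. miR-277 (147934 tags in eggs, 183782 in metacercariae) and miR-61-3p (53362 tags in eggs, 55203 in metacercariae) were 2.09-fold and 2.51-fold higher on the class scale and within 1.25-fold on the library scale. Among entries with no family name, new_miR-001 had 25 tags in eggs and 1913 in metacercariae, 29.5-fold lower on the class scale, where of the entries called lower only miR-190-5p had a larger fold. new_miR-112 had 55 tags in eggs and 25 in metacercariae, 5.71-fold higher on the class scale alone.

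**Figure D2:**
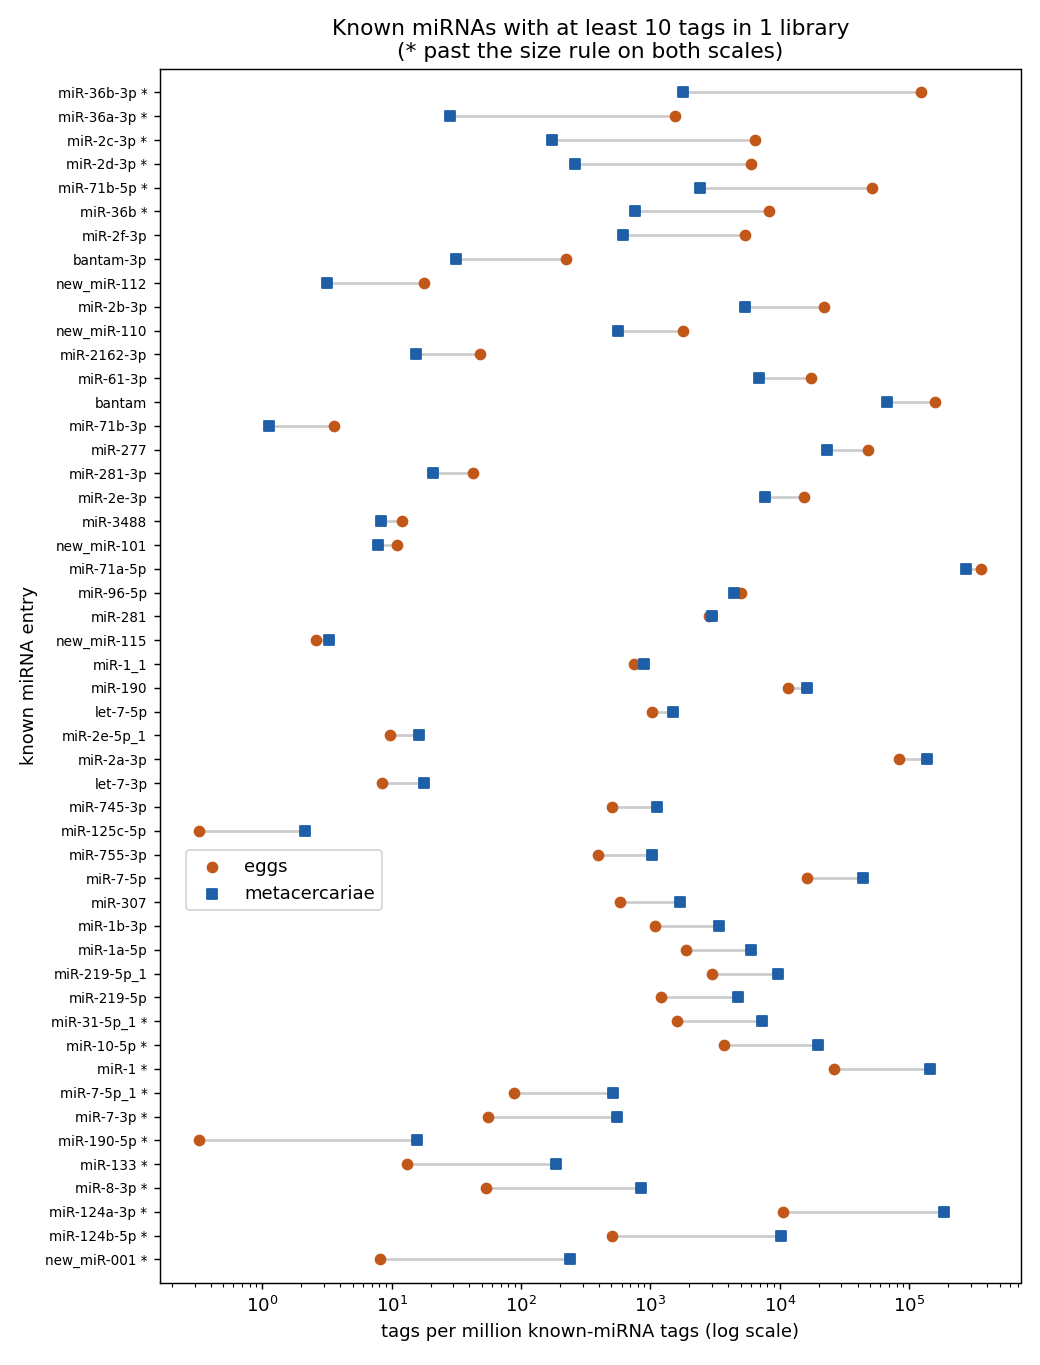
Tags scaled to 1000000 known miRNA tags on a log axis in eggs (circles) and metacercariae (squares) for the 50 known miRNAs with at least 10 tags in either library, ordered by fold. miR-36b-3p, with 69.7-fold higher values in eggs, and miR-36a-3p lie at the top, and miR-36b lies below miR-2c-3p, miR-2d-3p and miR-71b-5p. The miR-124 entries lie near the bottom, with 17.6-fold lower values in eggs for miR-124a-3p.

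The predicted miRNAs were dominated by a few entries in each stage, and the leading one of eggs was almost missing in metacercariae. The tables listed 131 of them, 92 in eggs, 108 in metacercariae and 69 in both, which is 75.0% of the egg list and 63.9% of the metacercaria list. On the class scale 12 of 131 (9.16%) were higher in eggs and 52 (39.7%) lower. On the library scale 18 (13.7%) were higher and 28 (21.4%) lower. On both scales 12 were higher and 28 lower. The split moves with the scale because 1 entry makes up much of the egg class. novel_mir1 had 629565 tags in eggs and 46 in metacercariae, and it held 49.5% of predicted miRNA tags in eggs. It was 6515-fold higher in eggs on the class scale and 13653-fold on the library scale (10235 to 18648), and adults held 37572 tags. The deposited position is on scaffold NW_008751893, bases 603415 to 603479, of the related fluke Opisthorchis viverrini. The tables give no gene, exon or strand for these positions, and no genome build is named in the sources used here.

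The other predicted miRNAs higher in eggs on the class scale were less abundant, and the folds of those unlisted in metacercariae are lower bounds. novel_mir76 had 28993 tags in eggs and was unlisted in metacercariae, at least 1533-fold higher on the class scale. novel_mir68 had 2256 tags in eggs and was likewise unlisted in metacercariae, at least 119-fold higher. novel_mir124 had 16532 tags in eggs and 79 in metacercariae, 99.6-fold higher, and adults held the most, 51819 tags. novel_mir131 followed that order at a lower level, holding 4542 tags in eggs and 240 in metacercariae, 9.01-fold higher, while adults held 16171. novel_mir15 had 206 tags in eggs, none listed in metacercariae and 7605 in adults. Of the 12 entries higher in eggs, 8 held a still larger share of predicted miRNA tags in adults and 4 lay between. These entries were picked as lower in metacercariae than in eggs, so only the place of adults is not set by the rule. Of the 52 entries lower in eggs, adults lay between for 24, above both for 12 and below both for 16, with unlisted adult entries counted as 0. novel_mir73, the second most abundant of eggs, had 404503 tags in eggs and 52033 in metacercariae, 3.70-fold higher on the class scale, just short of the fold, and 7.75-fold on the library scale. It held 31.8% of predicted miRNA tags in eggs and 8.59% in metacercariae.

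In the other direction, novel_mir74 led the metacercaria class with 30.3% of its predicted miRNA tags. It had 3532 tags in eggs and 183292 in metacercariae, 109-fold lower in eggs on the class scale and 52.0-fold on the library scale. novel_mir8 had 699 tags in eggs and 38373 in metacercariae, 115-fold and 55.0-fold lower. novel_mir3 had 2420 tags in eggs and 73310 in metacercariae, 63.6-fold and 30.4-fold lower. novel_mir23 was unlisted in eggs and had 899 tags in metacercariae, at least 210-fold lower on the class scale. The smaller entries novel_mir26, novel_mir136, novel_mir22, novel_mir36, novel_mir43 and novel_mir146 had 11 to 74 tags in eggs and 234 to 1619 in metacercariae, and all were lower on both scales. novel_mir12 and novel_mir148 are neighbours on scaffold NW_008751832 of Opisthorchis viverrini, at bases 1040091 to 1040173 and 1040276 to 1040359. The first had 751 tags in eggs and 11656 in metacercariae, and the second had 1932 tags in eggs and 22059 in metacercariae, so both were lower in eggs, 32.6-fold and 24.0-fold on the class scale.

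The reference species of the positions also differed in its share. Entries on Clonorchis sinensis scaffolds (78 of 131) held 2.43% of predicted miRNA tags in eggs and 28.3% in metacercariae. The 36 entries on Opisthorchis viverrini scaffolds held 61.3% in eggs and 24.2% in metacercariae, with novel_mir1 alone giving most of the egg value. The 13 entries on Fasciola hepatica scaffolds held 34.8% in eggs and 46.9% in metacercariae, mostly novel_mir73 in eggs and novel_mir74 in metacercariae. The species is read from the scaffold name series, of which the deposited vesicle table names an example each.

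**Figure D3:**
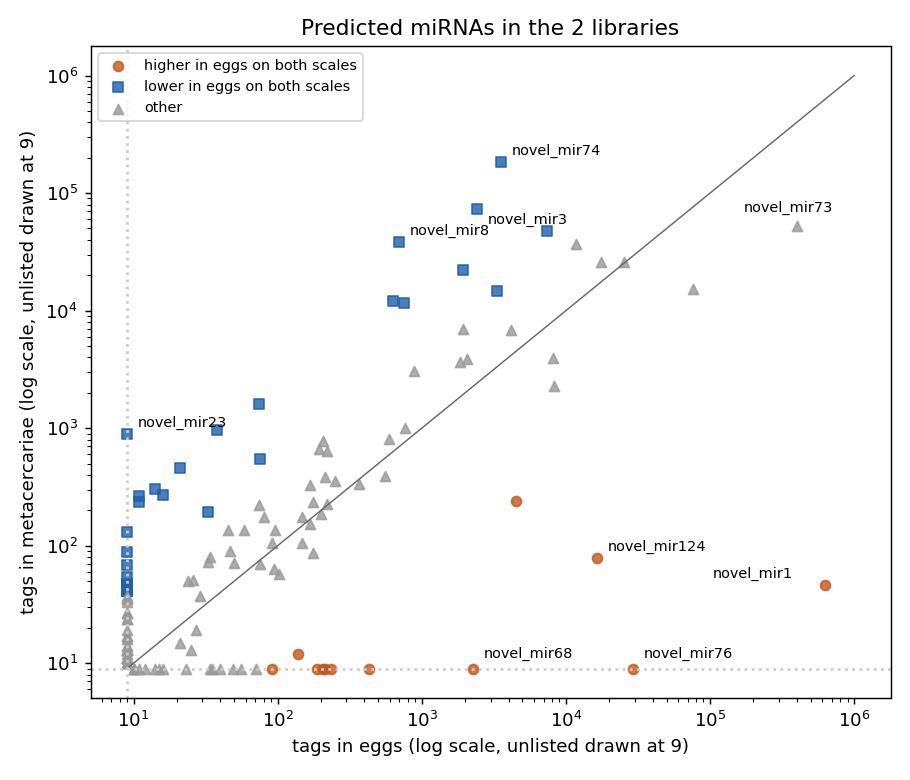
Tags of the 131 predicted miRNAs in eggs (x) and metacercariae (y) on log axes, with unlisted entries drawn at 9 tags and the line of equal tags. novel_mir1 lies at 629565 tags in eggs and 46 in metacercariae, and novel_mir74 at 3532 tags in eggs and 183292 in metacercariae.

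Few piRNA entries passed the size rule, and most entries hold few tags, so this does not show that the makeup of the class was alike. All were assigned by the authors to LTR/Gypsy elements, a family of retrotransposons. Parasitic flatworms have been described as lacking Piwi proteins, so the class is named here as deposited. The tables listed 4800 entries, 3189 in eggs, 3853 in metacercariae and 2242 in both, which is 70.3% of the egg list and 58.2% of the metacercaria list. The shared entries held 84.0% of piRNA tags in eggs and 75.9% in metacercariae, and 68.7% of them lay within 2-fold on the class scale. On the class scale 118 of 4800 (2.46%) were higher in eggs and 82 (1.71%) lower, and on the library scale 57 (1.19%) were higher and 169 (3.52%) lower. The median entry held 19 tags in eggs and 21 in metacercariae, so a fold of 4 was often not detectable at this depth. The most abundant entry of both libraries, novel_pir5480, had 880 tags in eggs and 868 in metacercariae.

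Summed over loci, most ratios lay near 1. The entries fall on 157 annotated Gypsy elements, and on 136 combinations of scaffold and strand. Of 78 combinations with at least 100 tags in either library, 76 had tags in both, their median ratio on the class scale was 1.06 (range 0.189 to 2.79), and 65 lay within 2-fold. The 3 largest held 36.7% of piRNA tags in eggs and 36.3% in metacercariae. Plus-strand entries held 70.1% in eggs and 67.8% in metacercariae.

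The largest 2 loci moved in opposite directions. The plus strand of DF143974.1 had 14977 tags in eggs and 12393 in metacercariae, which was 15.2% and 9.81% of piRNA tags. It was 1.55-fold higher in eggs, and 1.37-fold over entries listed in both. Of its 545 entries 26 (4.77%) were higher and 3 lower, against 2.46% and 1.71% of all piRNAs. The plus strand of DF142881.1 had 14002 tags in eggs and 25161 in metacercariae, 14.2% and 19.9%. It was 1.40-fold lower in eggs, and 1.35-fold over entries listed in both. Of its 830 entries 15 (1.81%) were higher and 28 (3.37%) lower. The third, the minus strand of DF143043.1, had 7278 tags in eggs and 8361 in metacercariae, 7.38% and 6.62%. Elements of the same scaffold and strand could differ from each other, and the following example was chosen after its values were seen. On the minus strand of DF142828.1 the element at bases 117145 to 117235 had 85 listed tags in eggs and 813 in metacercariae. That was 7.47-fold lower in eggs, but only 5 of its 24 entries were listed there, and unlisted tags are left out. Over its entries listed in both libraries the fold was 4.33. The element at bases 965544 to 968170 had 5127 tags in eggs and 4256 in metacercariae. It was 1.54-fold higher in eggs, and 1.30-fold over entries listed in both. Of single entries on the class scale, novel_pir1337 had 514 tags in eggs and 50 in metacercariae, 13.2-fold higher, and novel_pir4054 had 192 tags in eggs and was unlisted in metacercariae, at least 27.3-fold higher. novel_pir5422 had 11 tags in eggs and 236 in metacercariae, 16.7-fold lower in eggs, and novel_pir5399 was unlisted in eggs and had 161 tags in metacercariae, at least 14.0-fold lower.

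**Figure D4:**
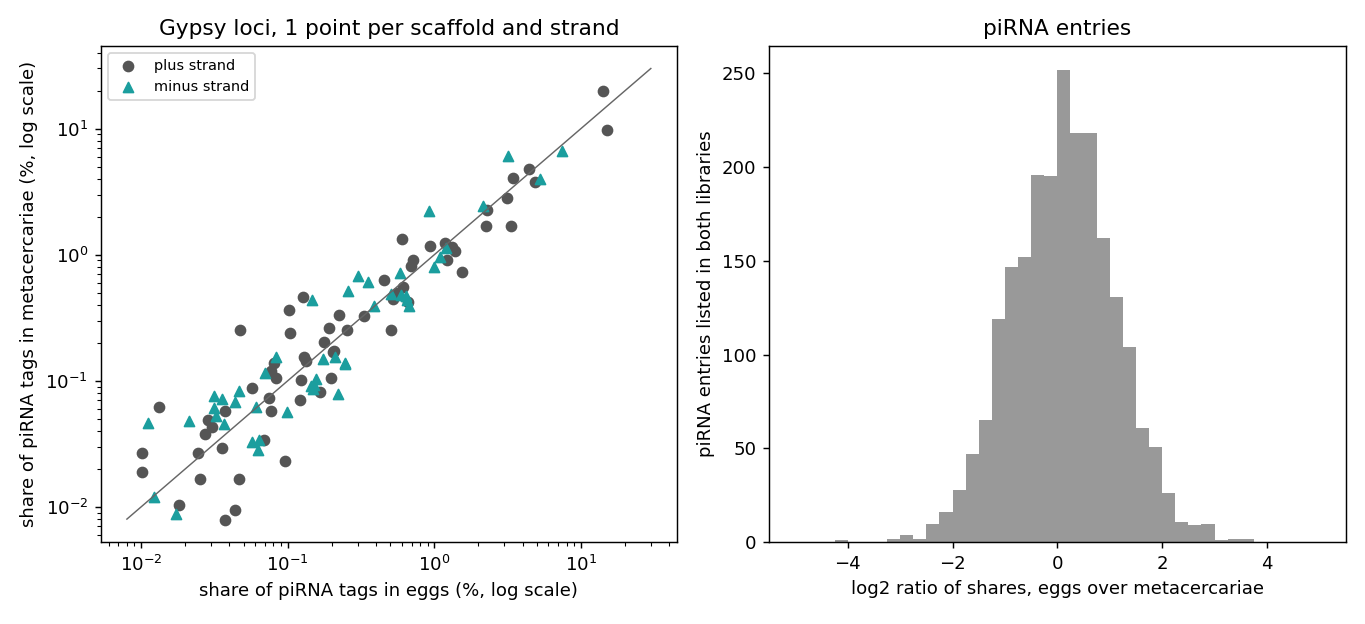
Left, share of piRNA tags of each scaffold and strand with tags in both libraries, eggs on x and metacercariae on y, on log axes with the line of equality. Right, number of piRNA entries listed in both libraries by log2 ratio of class shares, eggs over metacercariae; 68.7% lie within 2-fold.

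Rfam families differed in both directions. The tables listed 239 families, 168 in eggs, 183 in metacercariae and 112 in both, and 84 reached 10 tags in either library. On the library scale 25 of 84 (29.8%) were higher in eggs and 26 (31.0%) lower. On the class scale, where each Rfam class has its own total, 24 (28.6%) were higher and 28 (33.3%) lower. On both scales 14 were higher and 13 lower. Below, folds are on the library scale unless stated.

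Fragments of ribosomal RNA, the core of the ribosome, gave the most tags outside the precursors. Of 8 ribosomal families with enough tags 2 (25.0%) were higher in eggs and 0 lower, while on the class scale, within the ribosomal total, 0 were higher and 5 (62.5%) lower. Small subunit ribosomal RNA of eukaryotes had 199293 tags in eggs and 8570 in metacercariae, 23.2-fold higher in eggs. Large subunit ribosomal RNA had 10016 tags in eggs and 1152 in metacercariae, 8.67-fold higher, and 5.8S ribosomal RNA had 22176 tags in eggs and 5836 in metacercariae, 3.79-fold higher. Within the ribosomal class the makeup therefore differed, with small subunit fragments at 85.9% of ribosomal tags in eggs and 53.7% in metacercariae. The families built on bacterial sequence were near equal, with 99 tags in eggs and 140 in metacercariae for the small subunit and 245 in eggs and 207 in metacercariae for the large one. The family of transfer-messenger RNA, which frees stalled ribosomes in bacteria, had 56333 tags in eggs and 2228 in metacercariae, 25.2-fold higher, and adults had 45266.

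Other structured RNAs moved by family, and of 17 with enough tags 6 (35.3%) were higher in eggs and 3 (17.6%) lower. On their class scale 0 were higher and 9 (52.9%) lower, since the transfer-messenger family makes up most of that class in eggs. The RNA of the signal recognition particle, which directs secreted proteins to the membrane, had 1144 tags in eggs and 367 in metacercariae, 3.11-fold higher. The stem-loop that ends histone messenger RNAs, made in dividing cells, had 77 tags in eggs and 4 in metacercariae, 19.2-fold higher (7.20 to 72.3). The MEN beta RNA family had 1956 tags in eggs and 66 in metacercariae, 29.6-fold higher, and the iron response element, which controls iron storage and uptake, 579 tags in eggs and 36 in metacercariae, 16.0-fold higher. Of 7 snoRNA families 3 (42.9%) were higher and 0 lower, and on the class scale 0 were higher and 4 (57.1%) lower. The snoRNA families A. fumigatus Afu_294 (2521 tags in eggs, 257 in metacercariae) and Z101 (283 tags in eggs, 22 in metacercariae) were 9.79-fold and 12.8-fold higher. U6, the spliceosomal RNA, had 2001 tags in eggs and 1626 in metacercariae, transfer RNA 1959 in eggs and 1743 in metacercariae, and Y RNA 224 in eggs and 321 in metacercariae, all within 1.5-fold. Of 4 spliceosomal families with enough tags 1 (25.0%), U4, was lower in eggs on both scales and 0 were higher. Over all 84 Rfam families 33.3% were lower on the class scale and 31.0% on the library scale. Fragments of RNAs that differ in length and abundance are not a measure of the intact RNA.

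Of 47 Rfam miRNA precursor families with enough tags, 14 (29.8%) were higher in eggs and 22 (46.8%) lower. On the class scale 24 (51.1%) were higher and 9 (19.1%) lower, because the precursor total was 9.50-fold lower in eggs. mir-71 led that total in eggs, with 62.7% of its tags, and mir-124 in metacercariae, with 86.6%. The families of muscle and nerve miRNAs mir-1, mir-133, mir-124 and mir-7 were lower in eggs on both scales, and mir-9/mir-79 on the library scale alone. mir-124 had 282 tags in eggs and 568259 in metacercariae, 2020-fold lower in eggs. mir-10 had 42 tags in eggs and 37981 in metacercariae, 907-fold lower, and mir-7 had 27 tags in eggs and 3654 in metacercariae, 136-fold lower. mir-1 had 2 tags in eggs and 6941 in metacercariae, so it was 3479-fold lower with a counting interval of 963 to 28733. mir-9/mir-79, a family of neural development, had 813 tags in eggs and 5405 in metacercariae, 6.66-fold lower. mir-184 had 14 tags in eggs and 1593 in metacercariae, 114-fold lower, and let-7 had 0 in eggs and 130 in metacercariae, at least 43.4-fold lower. mir-449 had 0 tags in eggs and 583 in metacercariae, at least 195-fold lower. Of 12 families present both as a known miRNA and as an Rfam precursor family, 10 moved in the same direction on the library scale. On that scale 37 of the 50 known miRNAs had a negative log2 fold and the precursor total was lower in eggs. Much of this agreement can therefore come from the class totals, and both sets of tags come from the same 2 libraries. On the class scale mir-8/mir-141/mir-200 was higher in eggs while the known miR-8-3p was lower. The exceptions on the library scale were miR-31 and miR-71. For miR-31 the precursor family had 182 tags in eggs and 2 in metacercariae against the lower known entry above. For miR-71 it had 43402 tags in eggs and 24233 in metacercariae, 1.79-fold higher.

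Plant and vertebrate families were read as markers of material other than the worm. Families of plant miRNAs summed to 19790 tags in eggs and 78 in metacercariae, 963 RPM in eggs and 3.81 RPM in metacercariae, 253-fold higher in eggs (203 to 320), with 81.2 RPM in adults. All 4 members with enough tags were higher on both scales, and 6 of 7 in eggs and 5 of 7 in metacercariae had any tag. mir-166 had 11948 tags in eggs and 50 in metacercariae, MIR168 had 3932 in eggs and 1 in metacercariae, MIR159 had 3240 in eggs and 23 in metacercariae, and MIR167_1 had 665 in eggs and 3 in metacercariae. Plant families outside that list included mir-393 (142 tags in eggs, 2 in metacercariae) and MIR164 (86 tags in eggs, 2 in metacercariae). Both were named for being among the 10 largest Rfam folds higher in eggs, so their direction was set by that choice. Families that vertebrates have and flatworms mostly lack summed to 4099 tags in eggs and 4954 in metacercariae, 200 RPM in eggs and 242 RPM in metacercariae, with 20 of 27 families in eggs and 25 of 27 in metacercariae at 1 tag or more. That list holds the mir-8/mir-141/mir-200 family, which also covers the flatworm miR-8 and had 1251 tags in eggs and 2486 in metacercariae. Without it, an alternative chosen after seeing the data, the sums were 2848 tags in eggs and 2468 in metacercariae, so the order turned, and eggs were 1.15-fold higher in RPM (1.09 to 1.22). On the library scale 4 of the 15 with enough tags were higher and 4 lower (26.7% each), against 29.8% and 46.8% of all 47 precursor families. On the class scale, within the smaller precursor total of eggs, 11 (73.3%) were higher and 0 lower, against 51.1% and 19.1% of all 47. mir-27 had 735 tags in eggs and 172 in metacercariae, mir-451, a red blood cell miRNA, 326 in eggs and 1303 in metacercariae, and mir-122, the hepatocyte miRNA, 3 in eggs and 7 in metacercariae. The part of this material in the ribosomal, snoRNA or other differences was not tested.

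**Figure D5:**
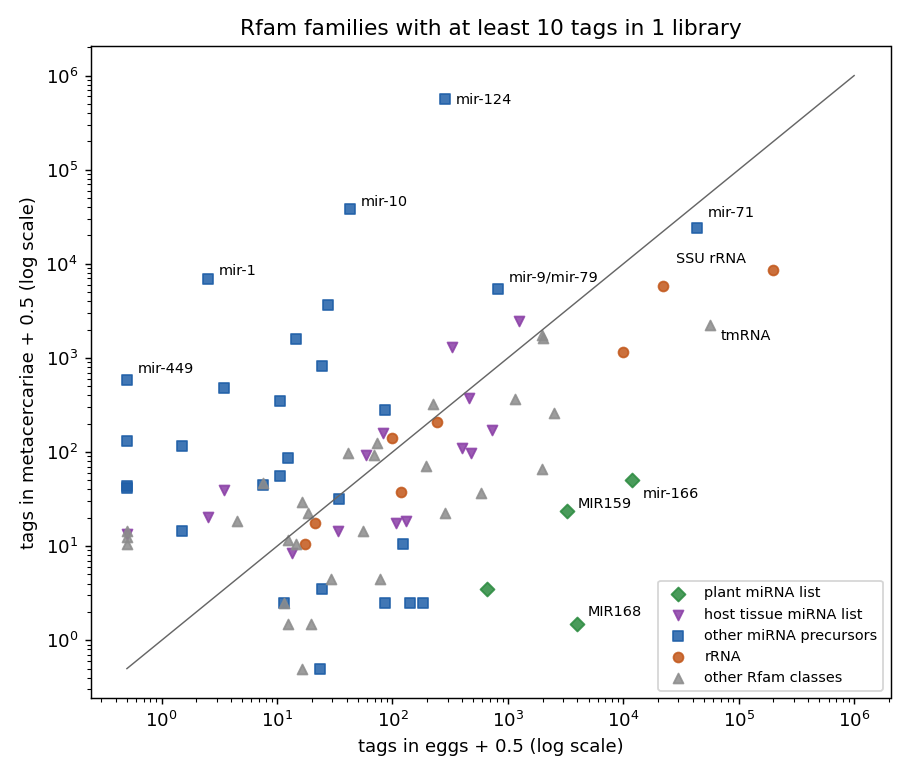
Tags of the 84 Rfam families with at least 10 tags in either library, eggs on x and metacercariae on y, each plus 0.5, on log axes with the line of equal tags. Plant miRNA families (diamonds) lie at the right with mir-166 at 11948 tags in eggs and 50 in metacercariae, and mir-124 lies at the top with 282 tags in eggs and 568259 in metacercariae.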

How the data were processed

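The authors deposited, for each stage, raw tag counts per small RNA entry, with the library total in the header, per the file headers. A column headed TPM equals that count divided by the header total, times 1000000, that is RPM, per the file headers, with no length correction. No source used here names the mapping tools, the class annotation or the builds. Known miRNAs, predicted miRNAs, piRNAs and Rfam families were matched by name between eggs and metacercariae, scaled to the class total or to the header total, and compared by the size rule stated in the report, with exact conditional binomial intervals and no test. The depth is 20541335 and 20490790 annotated tags. Where a predicted miRNA or piRNA was unlisted, 9 tags were used. Most named entries were the 10 largest folds each way per class (5 for piRNAs) with a mean of at least 10 on the class scale, the 5 most abundant of each library, and members of the lists. Some were named outside this rule and with their values known. These include novel_mir12, novel_mir148, mir-184, mir-9/mir-79, MEN beta, the histone stem-loop and the iron response element. The members and lists were chosen with earlier results of these data known. The size rule recovered set folds when tested on simulated data. Without replicates, and with tags that cannot be taken as independent molecules, that check cannot show how many calls here are false, on either scale. Alternatives were other scalings, pseudocounts, minimums and folds. Library scaling without a pseudocount was added after seeing the data, since 1 RPM stands for over 10 tags. 1 deposited column of another species' vesicles was not used. Python 3.11.15, pandas 2.3.3, numpy 2.4.6, scipy 1.17.1 and matplotlib 3.10.9 were used.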

Additional observations from a re-analysis of the deposited data

How the results depend on the processing

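No paired analysis was possible because each stage has 1 library and the labels carry no replicate numbers. No entry past the size rule turned to the opposite call under any alternative tried, but the counts moved. They moved with the scale and also with the fold and the value set for unlisted entries. The piRNA calls, both ways together, were 200 by the main rule and 226 on the library scale. They were 1232 at a fold of 2 and 2304 with unlisted entries at 0 tags. Moving from the class to the library scale shifts the median log2 fold by −1.38 for known miRNAs and 1.05 for predicted miRNAs. The shift is −0.36 for piRNAs and −3.05 for Rfam families. Known miRNAs were 6 higher and 20 lower in eggs on the header total with the pseudocount, 6 and 23 without it, and 17 and 20 at a fold of 2. Predicted miRNAs lower in eggs were 19 on the header total, 28 without the pseudocount and 80 at a fold of 2. With median-of-ratios size factors 22 predicted miRNAs were higher and 16 lower, and with unlisted entries at 0 tags 19 were higher. For piRNAs the header total gave 7 higher and 13 lower, without the pseudocount 57 and 169, a minimum of 50 tags 64 higher, a fold of 2 690 and 542, and unlisted entries at 0 tags 1007 and 1297. Rfam families lower in eggs were 12 on the header total and 17 with a minimum of 50 tags. Against only the listed entries, the ratio of shares, eggs over metacercariae, was 0.751 for known miRNAs, 4.09 for predicted miRNAs, 1.52 for piRNAs and 1.06 for Rfam families, so the last pair changed direction. On the log2 scale, the header total turned archaeal large subunit (1.25), archaeal small subunit (0.14) and bacterial large subunit ribosomal RNA (0.22), Betaproteobacteria transfer-messenger RNA (1.24), metazoan signal recognition particle RNA (1.58), mir-16 (−0.50), mir-181 (−0.82) and mir-8/mir-141/mir-200 (−0.98). Median-of-ratios size factors turned archaeal large subunit ribosomal RNA (0.45), snoRNA U61 (0.0706), mir-181 (−0.32) and mir-8/mir-141/mir-200 (−0.35), and the family sum turned miR-2b-3p, miR-2c-3p, miR-2d-3p and miR-2f-3p (−0.12). The summed vertebrate families turned without mir-8/mir-141/mir-200 (eggs over metacercariae 0.825 with it, 1.15 without it), an alternative added after seeing the data. The cause was not tested, apart from the scale itself.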
